A study of Malus domestica with 12 samples.

Results

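Transcripts of 2 apple homologues of the heat shock transcription factor HsfA2 were followed in Granny Smith fruit peel at harvest. MDP0000243895 corresponds to gene MD15G1057700 and MDP0000489886 to gene MD08G1064100, which their GDDH13 gene names place on chromosomes 15 and 8. The study annotated both by similarity to the Arabidopsis gene AT2G26150. These 2 genes, of 66810 transcripts with a sense probe on the AryANE_v2 array, were taken from the study's list of heat shock transcripts with lower expression in high scald peel. That list was drawn from the same samples and the same contrast, so the ratios of both genes are given as a description, without a test. Each gene has 1 sense probe and 1 antisense probe.

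Heat shock transcription factors are proteins that bind heat shock elements in promoters and switch on chaperone genes when proteins unfold. In Arabidopsis, HsfA2 is itself strongly induced by heat and by high light, and it prolongs the transcription of heat shock proteins (HSPs) and of protective enzymes during repeated or lasting stress. Class A factors such as HsfA2 activate transcription, whereas class B factors lack the activation motif of class A and often act as repressors or co-regulators. Superficial scald is a browning of the peel that appears after cold storage of apples. The chromosome pair 8 and 15 of apple largely derives from an ancient duplication of the genome, which is why many apple genes have a partner copy there.

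All peel samples came from wild-type Granny Smith apples harvested at early physiological maturity at one experimental station, and each was a sample of 20 fruit. Samples 2014-P24 and 2014-P36 were low in scald, whereas 2015-P24, 2015-P31 and 2017-R11 were high in scald. Here P24, P31, P36 and R11 are orchard plots, and the labels call the 2017 plot 31b. For C2 the study's array methods and the labels give the plots as here, whereas its plant material section gives P31 for 2014 and P36 for 2015. The comparisons were 2015-P24 over 2014-P24 (C1), 2015-P31 over 2014-P36 (C2) and 2017-R11 over 2014-P24 (C3), each on 2 two-colour arrays with the Cy3 and Cy5 dyes swapped. The 6 arrays therefore hold 12 channels, of which 4 carry 2014-P24. The arrays are technical repetitions, so the biological material amounts to 5 peel samples. All low scald peel was harvested in 2014 and all high scald peel in 2015 or 2017, so scald and harvest year cannot be told apart. One slide carried the arrays of both C1 and C3, and another those of C2.

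A probe was counted as well above background in a channel when the spot stood over 2.6 SDs of the background pixels above its local background. In the channels of C1 and C3, 21.3% to 29.7% of the 133709 probes met this. In C2 the Cy3 channels reached 29.03% and 29.06%, but the Cy5 channels only 13.1% for 2014-P36 and 10.8% for 2015-P31. The peel label was not checked against marker transcripts, because no table used here pairs such markers with the array's transcript names. In whole peel, fewer cells that express a gene and less of its RNA per cell cannot be told apart.

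MDP0000243895 gave clear signal in low scald peel and little or none in high scald peel. In the Cy3 channel its spot read 699 for 2014-P24 in C1 and 616 for the same peel in C3, above a local background of 21 in both. The Cy3 spot of 2014-P36 in C2 read 386 over a background of 21. The Cy5 spots read 1761 and 1089 for 2014-P24 and 209 for 2014-P36, over backgrounds of 78, 80 and 78. All 6 low scald channels were therefore well above background, by 6.94 to 91.1 background SDs, with 2014-P36 in Cy5 the weakest of them.

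In high scald peel the same spot was far dimmer. In Cy3 it read 58.5 for 2015-P24, 77.1 for 2015-P31 and 30.7 for 2017-R11, again over a background of 21. In Cy5 it read 326 for 2015-P24, 99.8 for 2015-P31 and 115 for 2017-R11, over backgrounds of 79, 79 and 76. The spot was well above background in 3 of 6 high scald channels. These were both channels of 2015-P24 and the Cy3 channel of 2015-P31, whereas neither channel of 2017-R11 passed.

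Both dyes ordered the peel in the same way within each comparison. After subtraction of the background, with no further normalization, MDP0000243895 in 2014-P24 was 18.1 times as bright as in 2015-P24 in Cy3 and 6.81 times as bright in Cy5. The corresponding values in C2, for 2014-P36 over 2015-P31, were 6.51 and 6.30. In C3, for 2014-P24 over 2017-R11, they were 61.6 and 26.1. Neither the 2015-P31 spot in Cy5 nor the 2017-R11 spots were well above background, so the value of 6.30 and both C3 values have no firm denominator. Each of these values sets the same dye on the 2 arrays of a comparison side by side, and differences in brightness between the arrays were not removed.

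MDP0000489886 was detected in low scald peel and in no high scald channel. Its Cy3 spot read 182 for 2014-P24 in C1, 163 for 2014-P24 in C3 and 117 for 2014-P36, over backgrounds of 22 to 23. Its Cy5 spot read 525 and 437 for 2014-P24 and 115 for 2014-P36, over backgrounds of 78, 78 and 75. In 5 of 6 low scald channels the spot was well above background. The exception was 2014-P36 in Cy5, one of the 2 Cy5 channels of C2 in which fewer probes of the whole array were detected.

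In Cy3 the MDP0000489886 spot read 30.5 for 2015-P24, 31.6 for 2015-P31 and 23.5 for 2017-R11, against backgrounds of 22, 21 and 23. In Cy5 it read 127, 82.0 and 85.0 for the same peel samples, against backgrounds of 80, 78 and 76. The excess over background ran from 0.054 to 2.27 background SDs, so no high scald channel passed. Detection in at least 5 low scald channels and in 0 high scald channels was found for 22 of the 66810 sense probes (0.0329%). MDP0000489886 was one of these by the contrast that chose it, and MDP0000243895 was not.

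**Figure D1:**
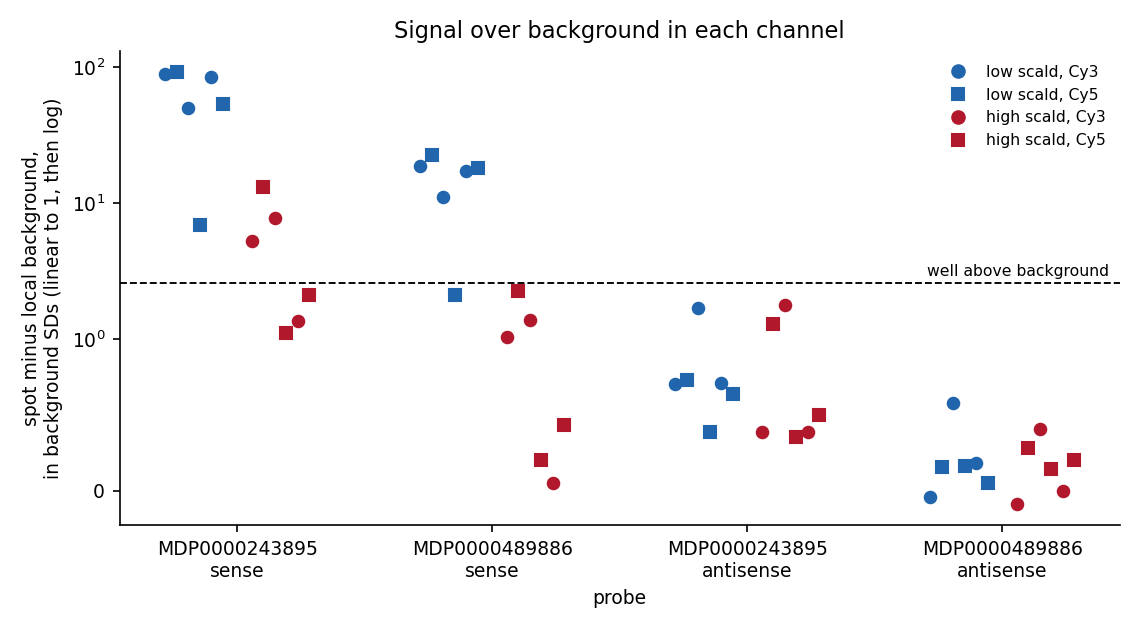
Spot intensity minus local background, in background SDs (linear up to 1, logarithmic above), for each probe (x axis) in the 6 low scald (blue) and 6 high scald (red) channels, with circles for Cy3 and squares for Cy5. The dashed line marks 2.6 SDs: MDP0000243895 passed it in 6 low and 3 high scald channels, MDP0000489886 in 5 and 0, and the antisense probes in none.

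Levels per channel were next put on a common scale, as log2 intensity after normalization within and between arrays. For MDP0000243895 the low scald channels lay at 8.45 to 9.76 with a median of 9.53, and the high scald channels at 6.27 to 7.58 with a median of 6.56. All high scald channels lay below all low scald channels, which was so for 0.693% of the sense probes measured on 6 arrays. By peel sample its mean level was 9.61 for 2014-P24 (4 channels) and 8.73 for 2014-P36, and 7.29 for 2015-P31, 6.56 for 2015-P24 and 6.29 for 2017-R11 (2 channels each). The channels of a sample lay within 0.02 to 0.29 of the middle of their range, and the channels of 2014-P24 all lay above those of 2014-P36. The high scald samples are not ordered. The mean of 2015-P31 includes a Cy5 level of 7.58 from a spot not well above background, and neither channel of 2017-R11 was detected. As 2014-P36 and 2015-P31 lay on the second slide, slide and sample cannot be told apart for them.

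For MDP0000489886 the low scald channels lay at 6.77 to 8.26 with a median of 7.95, and the high scald channels at 5.61 to 6.46 with a median of 6.05. Here too all high scald channels lay below the low scald ones. Mean levels were 8.11 for 2014-P24, 7.01 for 2014-P36, 6.21 for 2015-P31, 5.98 for 2017-R11 and 5.87 for 2015-P24. All channels of 2014-P24 lay above those of 2014-P36. The mean of 2014-P36 includes a Cy5 level of 6.77 from a spot not well above background, and this sample lay on the second slide. The channels of the 3 high scald samples overlapped, and as none was well above background their levels have no order. The repeated sample 2014-P24 came out alike in C1 and C3, at 9.70 and 9.53 for MDP0000243895 and at 8.11 and 8.10 for MDP0000489886.

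**Figure D2:**
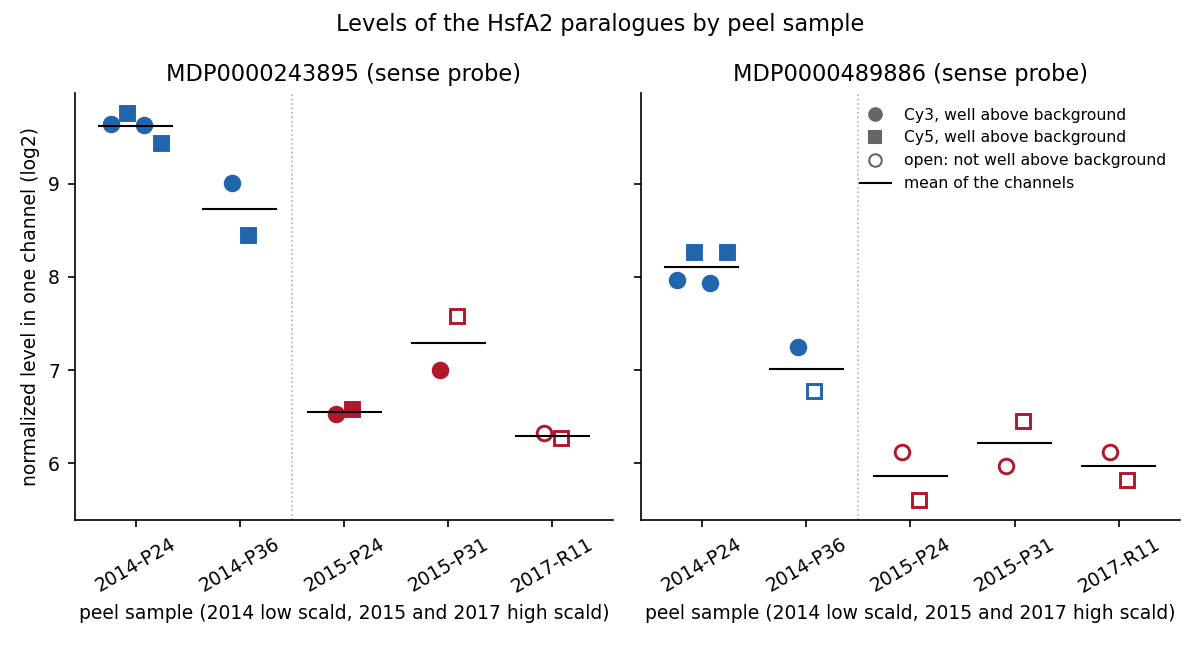
Normalized log2 level of each sense probe (y axis) in every channel, by peel sample (x axis), blue for low and red for high scald, circles for Cy3, squares for Cy5, open where the spot was not well above background, with the mean of the channels as a line. Low scald channels of MDP0000243895 lie at 8.45 to 9.76 and high scald channels at 6.27 to 7.58, and those of MDP0000489886 at 6.77 to 8.26 and 5.61 to 6.46.

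On all 6 arrays both genes had a negative log2 ratio, given here as high over low scald. For MDP0000243895 the C1 arrays gave -3.06 and -3.23, the C2 arrays -1.43 and -1.45 and the C3 arrays -3.36 and -3.11, with the low scald sample in Cy3 and then in Cy5. This is 8.32 and 9.35 times more signal in low scald peel for C1, 2.70 and 2.74 times for C2 and 10.3 and 8.64 times for C3. Both C3 values and the C2 value of 2.70 rest on high scald spots not well above background, so they have no firm denominator. Swapping the dyes moved the ratio by 0.02 to 0.25, whereas C2 differed from the other comparisons by far more than that. The mean over the 3 comparisons, which includes the ratios without a firm denominator, was -2.61 ± 1.01 (SD, n = 3).

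For MDP0000489886 the C1 arrays gave -2.36 and -2.14, the C2 arrays -0.79 and -0.80 and the C3 arrays -2.11 and -2.14, in the same order of dyes. The dye swap gap was 0.01 to 0.22, and C2 was again the smallest. The mean was -1.72 ± 0.81 (SD, n = 3). Because none of the high scald channels passed detection, the ratio has no firm denominator. High scald levels under the lowest level measured well above background in the same channel were raised to it. MDP0000489886 then came out 2.24-fold lower over all high scald samples, with peel samples as replicates. Spots not well above background can lie above that lowest level, so this fold is a guide and not a strict lower bound. The measured means were 7.56 on the log2 scale for low and 6.02 for high scald. By comparison this guide was 4.35-fold for C1 and 3.09-fold for C3. The C2 value of 1.23-fold is not read as a guide, because its low scald mean includes a Cy5 spot not well above background. The same spot enters the low scald mean behind the 2.24-fold value. For MDP0000243895 this guide was taken only in C3, where no high scald channel passed, and was 8.32-fold lower in 2017-R11.

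A negative ratio on 6 of 6 arrays was found for 3.18% of the 66414 sense probes measured on all of them. Ordered from the most negative mean ratio among the 66810 sense probes, MDP0000243895 stood at place 22 and MDP0000489886 at place 68. In C1, C2 and C3 the places were 22, 142 and 26 for MDP0000243895 and 63, 899 and 96 for MDP0000489886. Of all 133709 probes, 5% had a ratio under -0.19 for C1, under -0.23 for C2 and under -0.28 for C3, with medians of 0.00, 0.00 and -0.00. These places follow from the contrast that chose the genes. Those of MDP0000489886 and the C3 place of MDP0000243895 rest on high scald spots not well above background. The mean and C2 places of MDP0000243895 do so in part.

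**Figure D3:**
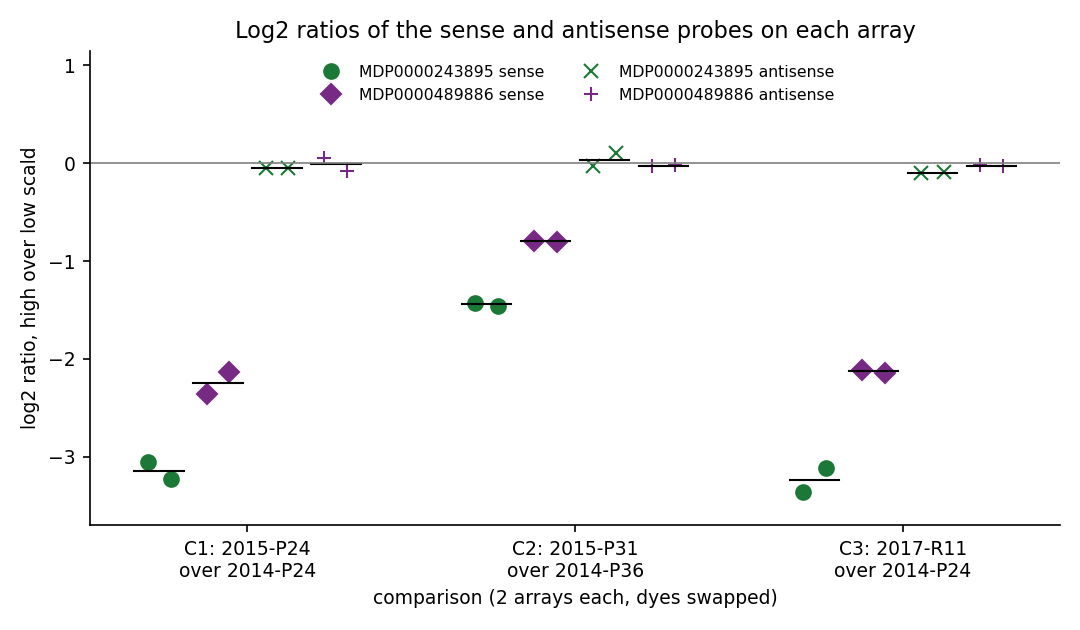
Log2 ratio of high over low scald (y axis) on the 2 dye-swapped arrays of each comparison (x axis) for the sense and antisense probes, with the mean of the 2 arrays as a line. Sense ratios lie between -3.36 and -0.79, and antisense ratios between -0.10 and 0.11.

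With this background correction the ratio of MDP0000489886 was the smaller of the pair on each array. It exceeded that of MDP0000243895 by 0.64 to 1.25 per array and by 0.88 ± 0.23 (SD, n = 3 comparisons) on the log2 scale. This order rests on how the dim high scald spots were treated. With plain background subtraction the mean ratios became -3.83 for MDP0000243895 and -4.65 for MDP0000489886, and the difference turned to -0.81. The data therefore do not order the 2 genes by the size of their ratio.

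C2 gave the smallest ratio for both genes, at 0.453 and 0.364 of the mean of C1 and C3. Among all probes the C2 ratio was the smallest in size of the 3 in 32.4%, and among 3596 sense probes with a negative ratio in each comparison and detection in at least 6 channels in 48.4%. Without C2 the mean ratios were -3.19 and -2.19. The low detection in the Cy5 channels of C2, the second slide, and the other orchard plots all go with this comparison, and their part in the smaller ratio was not tested.

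The high scald years could be set side by side through 2014-P24, which both were hybridised with. The ratio of 2017-R11 minus that of 2015-P24 was -0.30 and 0.12 for MDP0000243895 on the 2 dye orientations, with a mean of -0.09. For MDP0000489886 it was 0.25 and -0.00, with a mean of 0.12. The orientations differed in sign and the mean stayed within their spread for both genes. These values depend on the processing. Plain subtraction gave -1.21 and -2.57 for MDP0000243895 and MDP0000489886, a normexp offset of 16 gave -0.47 and -0.13, and median centring -0.56 and -0.13, so the sign for MDP0000489886 turned. Only MDP0000243895 in 2015-P24 was well above background here, and no difference between the high scald years is read from these values.

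No antisense signal was detected for either gene. The antisense probe of MDP0000243895, with 2 spots, lay 0.359 to 1.80 background SDs above background, and that of MDP0000489886, with 1 spot, -0.084 to 0.584. Neither was well above background in any of the 12 channels. Their mean ratios were -0.03 ± 0.07 and -0.02 ± 0.01 (SD, n = 3), the size of the spread between arrays. Signal was therefore detected on the sense strand alone.

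A pair of other class A factors and 3 class B factors had lower means in high scald peel, with smaller ratios than MDP0000243895. They were taken from the study's wider list of differentially expressed transcripts. None of these 5 sense transcripts passed limma's test here, on 3 ratios, at an adjusted p of at most 0.05 (Benjamini-Hochberg, adjusted p from 0.583 to 0.915). The study had selected its list at the same threshold with its own combined fit. Over all probes the test called 1 lower probe, 0.000748% of 133709, and 0 higher ones (0%), whereas 7098 probes had an unadjusted p under 0.05. The probe called was MDE0100036383, at -3.90, named here after its value was seen. The study had chosen the list on these samples, so the shared direction is not independent evidence.

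HsfA6b (MDP0000925901), a class A factor linked to drought and heat responses in Arabidopsis, had a mean log2 ratio of -1.59 ± 0.48 (SD, n = 3). HsfA5 (MDP0000301101), known in tomato and Arabidopsis as a repressor of HsfA4, had the smallest ratio, -0.33 ± 0.10. Among the class B factors, HsfB1 (MDP0000527802) had -1.38 ± 0.67, HsfB2a (MDP0000155667) -0.94 ± 0.66 and HsfB2b (MDP0000127499) -0.87 ± 0.54. All 5 were negative on 6 of 6 arrays, against 3.18% of sense probes, and their median was -0.94. The comparisons gave medians of -1.26 (C1), -0.32 (C2) and -1.40 (C3), with C2 again the smallest. Unlike MDP0000489886, each of the 5 was well above background in at least 2 high scald channels.

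Some probes of the family with antisense names gave signal. The array name MDP0000341756_r, assigned to HsfA6b, was well above background in 6 low and 2 high scald channels, with a mean ratio of -1.85. MDP0000349799_r, assigned to HsfB2b, was above it in all 12 channels, with -1.11. Their adjusted p were 0.614 and 0.433. In contrast, the antisense partners of the 5 sense probes above were detected in 0 of 12 channels, as were those of both HsfA2 genes. HsfA6b and HsfB2b are among these 5, so for each of them the antisense probes disagree. Whether the brighter probes report antisense transcription was not tested.

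The study marked 33 transcripts, from 26 named genes and 1 without a gene name, as homologues of Arabidopsis genes regulated by HsfA2. None was called (adjusted p from 0.345 to 0.941). All 33 had a negative ratio in C1, C2 and C3, against 13.2% of all probes, but the study had again chosen them for lower expression in these samples. The median ratio was -1.83, and the medians were -2.47 (C1), -0.80 (C2) and -2.42 (C3). The C2 ratio was the smallest in 33 of 33. MDP0000243895 fell inside the range of this list, as 8 of the 33 had a more negative mean ratio. It was well above background in only 3 of 6 high scald channels, so this place is approximate. MDP0000489886 was not placed in the list, because none of its high scald channels passed detection.

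The largest ratio belonged to the plastid small heat shock protein HSP21 (MDP0000214382), at -3.75 ± 1.07. HSP101, the chaperone that pulls proteins out of aggregates, followed with -3.57 ± 0.44 for MDP0000217508 and -3.02 ± 0.49 for MDP0000476704. Between these stood MDP0000136609, a homologue of the endoplasmic reticulum protein AtHsp22.0-ER, at -3.02 ± 1.67. Further probes of the same HSP101 genes gave smaller ratios. MDP0000136587, of the gene of MDP0000217508, had -1.43 ± 0.68. MDP0000303015 and MDP0000637620, of the gene of MDP0000476704, had -2.73 ± 0.70 and -1.72 ± 0.79. At the other end stood galactinol synthase 2 (MDP0000231923), an enzyme of raffinose synthesis, at -0.33 ± 0.14, and MDP0000206386, which resembles HSP101, at -0.39 ± 0.17. MDP0000206386 was well above background in only 2 low and 0 high scald channels, so its small ratio is read from dim spots. All SDs are over 3 comparisons.

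**Figure D4:**
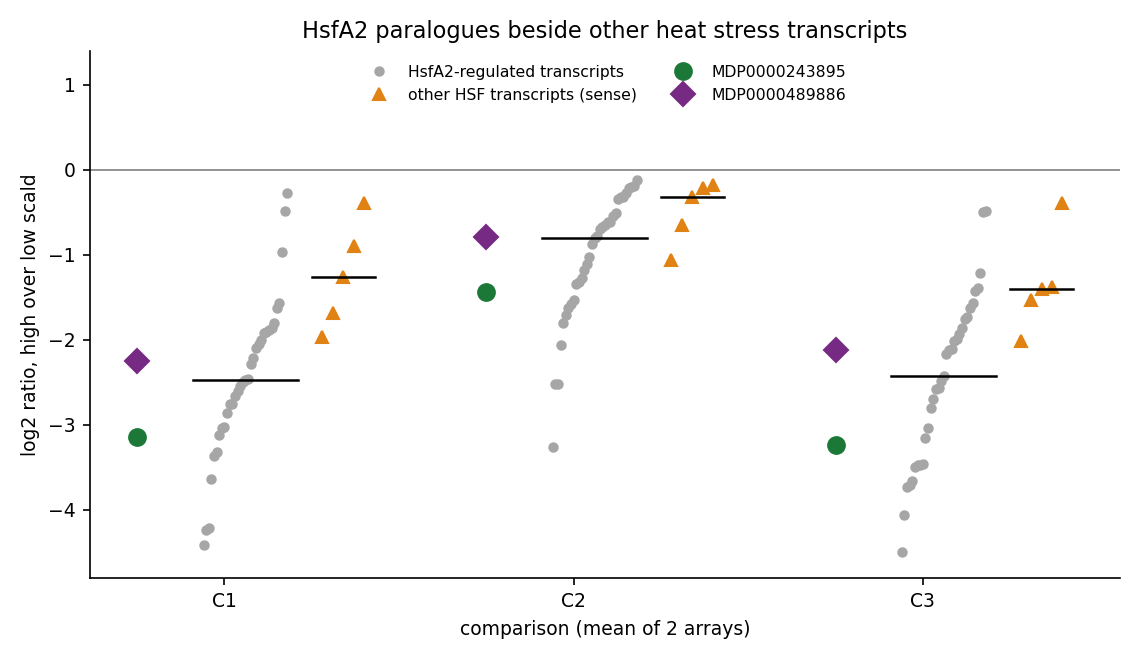
Log2 ratio of high over low scald (y axis) in each comparison (x axis) for both HsfA2 genes, the 33 HsfA2-regulated transcripts and the 5 other HSF sense transcripts, with list medians as lines. All points lie below 0, and the C2 medians of -0.80 and -0.32 are the nearest to it.

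Class II small HSP genes with names on the same chromosomes also had lower means in high scald peel. They come from the study's list of heat shock transcripts lower in this contrast, so their direction is not independent evidence. The class II protein HSP17.6CII gave -3.24 ± 1.35 for MDP0000700383 (MD15G1053800), -2.97 ± 0.68 for MDP0000188935 (MD08G1068000) and -2.44 ± 0.85 for MDP0000362505 (MD08G1068200). None was called by limma's test (adjusted p from 0.545 to 0.694), against 1 lower probe of all 133709 (0.000748%). All 3 were well above background in all 12 channels, unlike the HsfA2 genes. Other small HSP transcripts named on these chromosomes passed in 6 low and 5 high scald channels. These were MDP0000136609 (MD15G1443700) and MDP0000656080 (MD08G1249100), the latter with a mean ratio of -2.88 ± 2.09.

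The profile of each HsfA2 gene was finally compared with 25149 sense probes detected in at least 6 channels. The measure was the root mean square difference of levels, each centred on its own mean, over 6 points, which are the sample and comparison pairs. The points come from 5 peel samples and share slides and arrays. A probe could qualify through its low scald channels alone, so likeness partly restates the contrast that chose the genes. Closest to MDP0000243895 were MDP0000125300, a homologue of the mitochondrial small HSP AtHsp23.6-M (0.116, r = 0.997), and MDP0000265157, of AtHsp17.6C-Cl (0.137, r = 0.995). Next came MDP0000177640, a RING finger protein like RDUF2 (0.219, r = 0.992), MDP0000566567, the glutathione S-transferase GSTU19 (0.226, r = 0.988), and MDP0000659978, a SERF-like protein (0.234, r = 0.986).

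MDP0000489886 was not detected at the 3 high scald points, so its likeness is read partly against background and is only a description of the normalized values. Closest to it was MDP0000549793, the DnaJ co-chaperone ERDJ3A (0.0601, r = 0.999), followed by MDP0000810697, another homologue of AtHsp17.6C-Cl (0.122, r = 0.993). The others were MDP0000137929, an ammonium transporter (0.134, r = 0.991), MDP0000161016, a glutathione S-transferase annotated as GSTU19 (0.162, r = 0.985), and MDP0000701080, the aquaporin PIP3 (0.165, r = 0.988). Both MDP0000161016 and MDP0000701080 passed detection in only 6 channels, the fewest that qualify, so dim spots enter their likeness too. The HsfA2 genes differed from each other by 0.4997 with r = 0.974. The 10 probes named here were picked as the nearest, so their smaller gaps follow from that choice. Against the 25149 probes, MDP0000489886 would stand at place 37 from MDP0000243895, although it was detected in too few channels to be ranked itself. MDP0000243895 would stand at place 163 from MDP0000489886. The gap also holds the difference in ratio size, whose sign depended on the background correction.

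**Figure D5:**
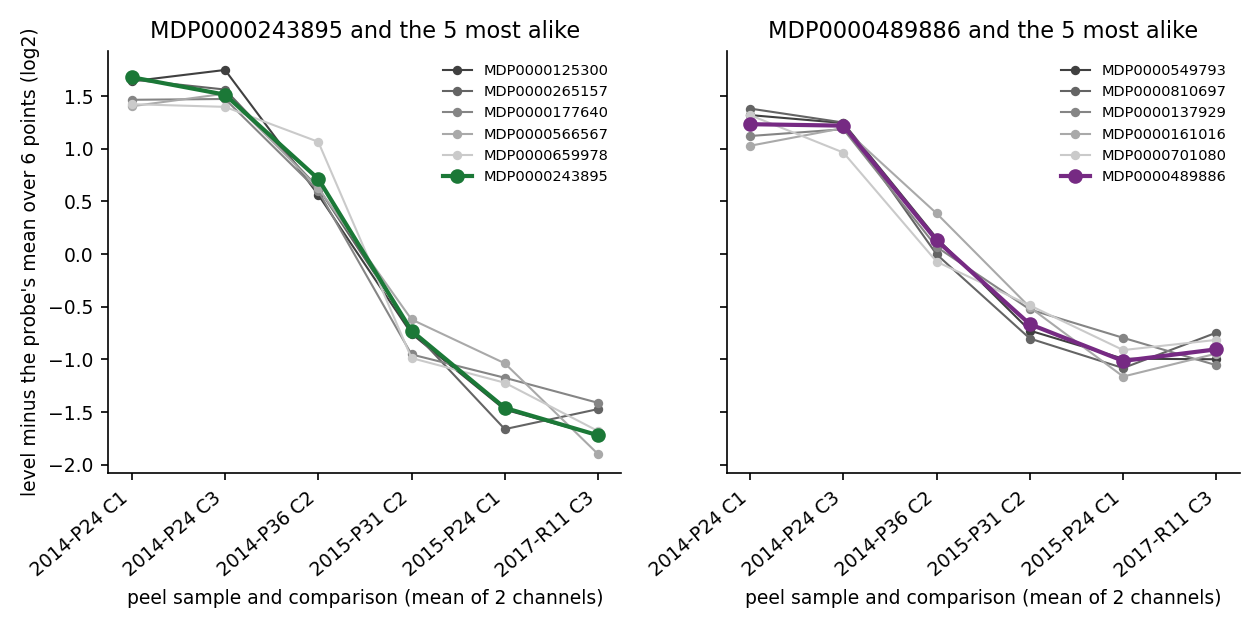
Log2 level minus the probe's own mean (y axis) at 6 points of peel sample and comparison (x axis) for each HsfA2 gene (coloured) and the 5 sense probes nearest to it (grey). Root mean square differences run from 0.116 to 0.234 for MDP0000243895 and from 0.0601 to 0.165 for MDP0000489886.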

How the data were processed

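Peel RNA was hybridised in dye swap on AryANE_v2 arrays. The authors deposited the spot intensity and local background intensity of each channel from Agilent Feature Extraction, with other columns that flag saturated and outlier spots, and a table of log2 values after their lowess, used here as an alternative. Their processing notes name limma. The intensity was background-corrected (normexp, offset 50) and normalized by loess (span 0.3, 4 iterations) in limma 3.58.1 under R 4.3.3. Outlier spots were left out, spots of a probe and arrays of a comparison were averaged, and 3 ratios entered lmFit and eBayes (1.59 prior degrees of freedom). P-values were adjusted over 133709 probes by Benjamini-Hochberg. Levels are single channels after loess and Aquantile. The normexp offset pulls ratios of dim spots towards 0. Only 3 ratios from 5 peel samples limit the precision, and C1 and C3 share 2014-P24. The fit was tested on simulated data. Of the non-control probes, 66810 report sense and 66774 antisense transcription and 125 carry no transcript name.

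Members and lists were chosen with earlier results of these data known. Named were both genes, their antisense probes, the other HSF transcripts, the 4 largest and 2 smallest HsfA2-regulated ratios and the 5 nearest profiles per gene. The HSP17.6CII genes, MDP0000656080, further probes of the HSP101 genes and the antisense partners of the other HSF transcripts were added after values were seen. Gene names follow the study's annotation. In all, 26 alternatives changed the background, normalization, spots, arrays, blocks and variance model. Files were read and drawn with pandas 2.3.3, numpy 2.4.6, matplotlib 3.10.9 (Python 3.11.15), statmod 1.5.0 and the R package data.table, version 1.17.8.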

Additional observations from a re-analysis of the deposited data

Results flagged for a closer look

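The antisense probe of MDP0000243895 had 1 array apart from the other 5. Its log2 ratio was 0.11 on the C2 array with low scald in Cy5, against -0.10 to -0.03 on the others, and the gap was 0.658 of the range, above Dixon's critical value for 6 values. The probe was not well above background in any channel, and chance gives such a gap in about 1 of 20 groups. The levels and ratios of the sense and antisense probes of both genes were all screened in this way, so several groups were tried.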

How the results depend on the processing

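Both sense ratios kept a negative sign in all alternatives that gave a value, 26 for MDP0000243895 and 25 for MDP0000489886, which the filter to probes well above background in all 6 channels of a group left out. Plain background subtraction moved them to -3.83 and -4.65, turned their difference to -0.81 and moved the median of the other HSF transcripts to -1.94. A normexp offset of 16 gave -2.55 for MDP0000489886 and a difference of 0.63. The HsfA2-regulated median stayed within the spread among comparisons throughout, at -2.47 to -1.63. Leaving out 1 comparison or array gave -3.19 to -2.29 for MDP0000243895, -2.19 to -1.46 for MDP0000489886, 0.77 to 1.00 for their difference, -1.32 to -0.72 and -2.39 to -1.63 for the other HSF and HsfA2-regulated medians, and 0 to 1 called probes, against 1 in the main fit.

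The count of called probes was 0 with plain subtraction, median centring, outlier spots kept, either dye orientation alone, C1 and C3 averaged first, slide as a block, eBayes with trend and robust settings, or 5 unpaired peel samples (no replicate block). It was 432 with 6 separate arrays and 457 when each comparison was a random block (consensus correlation -0.04), where arrays of the same RNA count as replicates. Each of those fits called 1 of the 5 other HSF and 12 of the 33 HsfA2-regulated transcripts. Among all 133709 probes tested the calls were the 432 and 457 given above. The study chose both lists on these samples, so these counts are not independent evidence. The pairs of peel samples were set by the array they shared.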
